A study of Mus musculus with 2 samples.

Results

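The Notch pathway was followed through 10 named genes of the 27998 in the deposited counts: the receptors *Notch1*, *Notch2* and *Notch3*, the ligands *Dll1*, *Dll4* and *Jag1*, and the target genes *Hes1*, *Hes5*, *Hey1* and *Hey2*. They were chosen by name, and each passed a minimum of 50 UMIs over the kept cells. Single cells came from the ocular area of 26-somite (E9.25) C57BL/6J mouse embryos. A pair of optic areas from 1 wild-type embryo (WT) gave 1 library, and that of 1 *Mab21l1*-null embryo (KO) the other. The null allele was carried by all cells of that embryo, and the sources used here give no other difference between both embryos. The question followed here is where these genes were expressed in the early eye and whether their levels differed between both libraries.

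Notch receptors are transmembrane proteins that are bound by Delta-like and Jagged ligands on a neighbouring cell. Binding leads to cleavage by ADAM proteases and then by gamma-secretase, and the released intracellular domain joins the DNA-binding protein Rbpj and a Mastermind coactivator in the nucleus. The best known targets are the basic helix-loop-helix repressors of the Hes and Hey families. In neural tissue Hes1 and Hes5 repress proneural factors and keep progenitors undifferentiated, while cells that make Dll1 signal to their neighbours. In vessels Dll4, Notch1 and Hey factors take part in arterial identity.

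After filtering, 1680 cells with 41880035 UMIs were kept in the WT-labelled library and 2404 cells with 52430844 UMIs in the KO-labelled library, with medians of 21037 and 18135 UMIs per cell. A UMI is a unique molecular identifier that marks 1 captured transcript. Levels are given as CPM, the UMIs of a gene per 1000000 UMIs of a cell class. The 3′ method tags each transcript once, so CPM was not scaled by gene length, and levels are compared between classes and libraries for 1 gene at a time. Brackets give exact 95% intervals for counting error only. With 1 embryo per genotype there was no replicate, no test was made, and a difference between libraries cannot be told apart from a difference between 2 embryos. *Mab21l1* itself was counted at 20.3 CPM in the WT-labelled library and at 32.5 CPM in the KO-labelled library, at 85.6 and 39.4 CPM in ectoderm and at 45.3 and 78.6 CPM in retina. Which part of the gene the null allele lacks is not given in the sources used here, so this RNA does not check the labels, and the libraries are named by them. Of the cell barcodes, 15 occurred in both libraries.

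Cells were sorted into classes by their marker genes. The WT-labelled library and the KO-labelled one gave 272 and 499 retina cells, 185 and 236 pigment epithelium cells, 181 and 224 forebrain cells, 457 and 649 mesenchyme cells, 67 and 106 endothelium cells and 64 and 49 ectoderm cells. No class was given to 890 of the 4084 cells. The markers define the classes, so their levels are a description: all 8 of retina, mesenchyme, endothelium and ectoderm, 6 of 8 of pigment epithelium and 6 of 10 of forebrain stood 2-fold or more over the other classes in both libraries. *Tyr* and *Slc45a2*, late pigment genes, and the forebrain genes *Nkx2-1* and *Barhl2* were seen in under 0.5% of all cells, and *Emx2* did not mark the class in the KO-labelled library. The classes are thus early pigment epithelium and a forebrain with *Fezf1* and *Fezf2*. Summed erythroid markers reached 128 to 175 CPM in the 6 classes of the WT-labelled library and 282 to 500.3 CPM in those of the KO-labelled library, while erythroid cells, used as a background class, held at most 2.19 CPM of any member except *Hes1*. The part of such free RNA in the results was not tested.

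*Notch1* (chr2:26457903-26516663, minus strand, coordinates here and below from GENCODE vM21 on GRCm38) encodes the receptor with a leading part in neural progenitors and arterial endothelium. Its level was highest in endothelium, at 131 [115 to 148] and 109 [96.3 to 122] CPM in the libraries labelled WT and KO. Forebrain came next at 36.2 [30.7 to 42.4] and 47.3 [41.3 to 54] CPM. Both classes were above all lower ones by more than their counting intervals in each library. Retina held 21.7 [18.8 to 25.1] and 20.8 [18.4 to 23.3] CPM, pigment epithelium 14.3 [11.2 to 17.9] and 20.5 [17.2 to 24.3] CPM and ectoderm 16.1 [9.94 to 24.5] and 20.2 [12.2 to 31.6] CPM, and neighbours among these 3 had overlapping intervals. Mesenchyme was lowest in both, at 5.61 [4.17 to 7.40] and 8.47 [6.81 to 10.4] CPM. In the WT-labelled library, 1 endothelial cell held 31 of the 257 UMIs, and the level without it was 118 CPM. After each cell was thinned to 10000 UMIs, endothelial cells with a *Notch1* UMI numbered 45 of 64 cells, 70.3% [57.6 to 81.1], in the WT-labelled library and 65 of 100 cells, 65% [54.8 to 74.3], in the KO-labelled library. Of the erythroid cells 0 of 38 and 0 of 52 had one after thinning, with exact upper limits of 9.25% and 6.85%. Before thinning 1 and 2 had one, at median depths of 34642 and 33622 UMIs against 25402 and 20821 in endothelium.

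*Notch3* (chr17:32120820-32166852, minus strand), a receptor best known from mural cells of vessels, was spread more evenly. Mesenchyme held 37.5 [33.6 to 41.7] and 35.4 [31.9 to 39.2] CPM, forebrain 35 [29.6 to 41.1] and 32.2 [27.2 to 37.8] CPM, pigment epithelium 28.1 [23.7 to 33.1] and 32.9 [28.7 to 37.7] CPM and retina 25.5 [22.3 to 29.1] and 27.9 [25.2 to 30.9] CPM. Ectoderm held 22.9 [15.5 to 32.7] and 38.3 [26.8 to 53.1] CPM, from 30 and 36 UMIs. Endothelium, lowest in both libraries, had 8.13 [4.65 to 13.2] and 13.7 [9.60 to 19] CPM. In each library the 5 classes above it formed a chain in which each overlapped its neighbour, and the last of them lay above endothelium by more than the intervals.

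**Figure D1:**
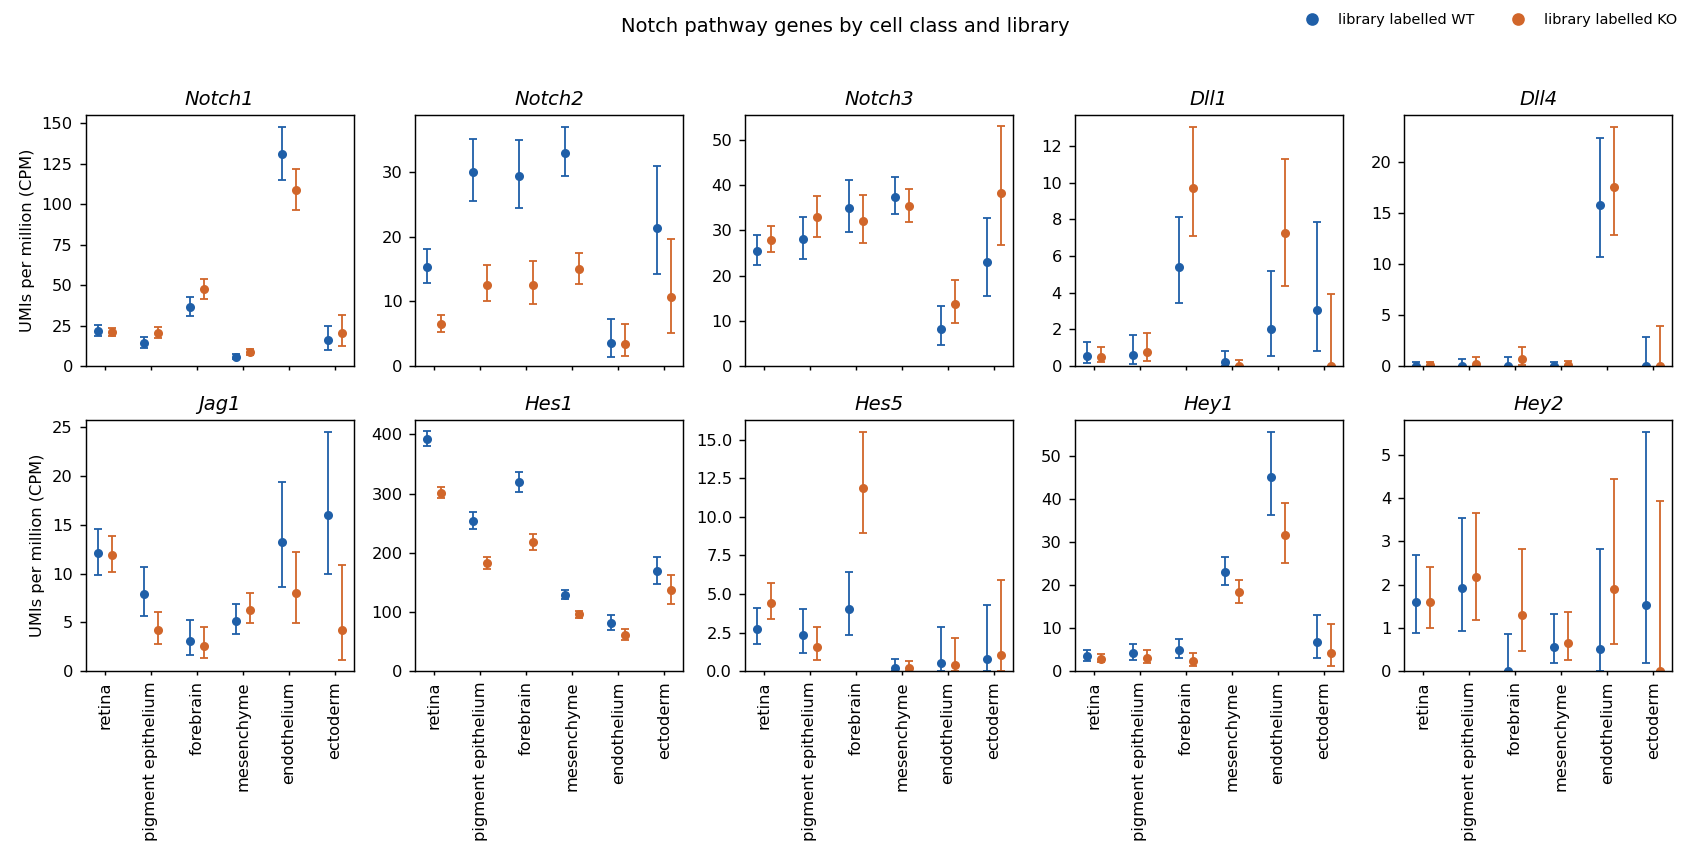
CPM of each Notch pathway gene (vertical axes, linear, a scale of its own per gene) in 6 cell classes (horizontal axes), for the WT-labelled library (blue) and the KO-labelled one (orange), 1 embryo each. Points are levels and bars exact 95% Poisson intervals. *Notch1* and *Dll4* stand highest in endothelium at 131 and 15.8 CPM in the WT-labelled library, *Hes1* in retina at 393 CPM, and *Notch2* is lower in the KO-labelled library in retina, pigment epithelium, forebrain and mesenchyme by more than the intervals.

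*Notch2* (chr3:98013527-98150361, plus strand, with exonic bases shared with *Gm42820* on the same strand) encodes a receptor that is broadly made in epithelium and mesenchyme. In the WT-labelled library it was highest in mesenchyme, pigment epithelium and forebrain, at 33 [29.3 to 37], 30.04 [25.5 to 35.1] and 29.4 [24.4 to 35] CPM. The same classes of the KO-labelled library held 15 [12.7 to 17.5], 12.6 [10.0 to 15.6] and 12.5 [9.52 to 16.2] CPM. Retina held 15.3 [12.8 to 18.1] and 6.46 [5.19 to 7.95] CPM and ectoderm 21.4 [14.2 to 30.9] and 10.6 [5.10 to 19.6] CPM. In endothelium only 7 and 9 UMIs were counted, or 3.56 [1.43 to 7.33] and 3.43 [1.57 to 6.51] CPM. The intervals of both libraries were apart in retina, pigment epithelium, forebrain and mesenchyme and overlapped in the other classes.

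The ratio of the KO to the WT level of *Notch2* was 0.423 [0.320 to 0.558] in retina, 0.419 [0.316 to 0.551] in pigment epithelium, 0.427 [0.307 to 0.587] in forebrain and 0.454 [0.372 to 0.552] in mesenchyme. Those are all 4 classes in which it had at least 50 UMIs in both libraries together, the minimum for a ratio to be counted, and each was past 1.5-fold. Among all genes with that many UMIs, 1.58% of those of retina, 2.01% of those of pigment epithelium, 1.89% of those of forebrain and 2.23% of those of mesenchyme were 1.5-fold or more below the WT level. Of 8485 genes counted in these 4 classes, 17 (0.200%) were that low in each, a count chosen after the values were seen. They include *Rpgrip1*, a cilium gene, *Actb*, *Srsf2* and *Ptms*.

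Where these UMIs lay within the classes differed between libraries. Cells were also clustered without the Notch pathway genes, which gave 19 clusters. Clusters 9 and 15, led by *Rpgrip1*, held 101 and 156 CPM of *Notch2* in the WT-labelled library and 97.4 and 201 CPM in the KO-labelled one. Together they held 112 [101 to 125] and 110.3 [89.4 to 135] CPM, so that the libraries had overlapping intervals there. They took up 205 cells or 12.2% of the WT-labelled library and 64 cells or 2.66% of the KO-labelled library. They held neural and mesenchymal cells and had no cell in endothelium or ectoderm. In the libraries labelled WT and KO they made up 24.3% and 8.93% of forebrain and 12.5% and 1.80% of retina. Their shares were 10.7% and 1.54% in mesenchyme and 4.32% and 1.27% in pigment epithelium. With medians of 14079 and 9849.5 UMIs their cells were shallower than most. Their leading genes also held *Hsf2*, and *Notch2* itself was among the 10 leading genes of each.

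Without these clusters the ratio of *Notch2* was 0.639 [0.462 to 0.885] in retina, 0.403 [0.301 to 0.536] in pigment epithelium, 0.488 [0.297 to 0.788] in forebrain and 0.560 [0.450 to 0.695] in mesenchyme. The retina value thus moved by over 1.5 times, and 4 of 4 ratios remained past 1.5-fold. Of the genes that were low in each of the 4 classes, 7 stayed so, *Notch2*, *Srsf2*, *Ptms*, *Klf13*, *Prkaca*, *Dexi* and *Hist1h2an*. *Dapk3* and *Aard* left the count only because they had under 50 UMIs in a class there, with highest ratios of 0.306 and 0.455, and the others had a ratio above the limit. *Rpgrip1* outside the clusters held 76.7 and 28.8 CPM in pigment epithelium and 41.9 and 29.2 CPM in retina. Clusters named by their markers, in place of the gate, leave out the *Rpgrip1*-led cells and those of every other unnamed cluster. Of the gated retina cells, 43 lay in cluster 9, but 116 lay in cluster 5, 120 in cluster 6 and 27 in cluster 8. With named clusters the retina ratio was 0.844 [0.543 to 1.32] and no longer past 1.5-fold. Thinned to 10000 UMIs a cell, the ratios were 0.261 in retina, 0.240 in pigment epithelium, 0.350 in forebrain and 0.420 in mesenchyme. Thinning gives each cell the same weight, and the part of the shallower *Rpgrip1*-led cells in these ratios was not tested. What set apart these cells was not tested.

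**Figure D2:**
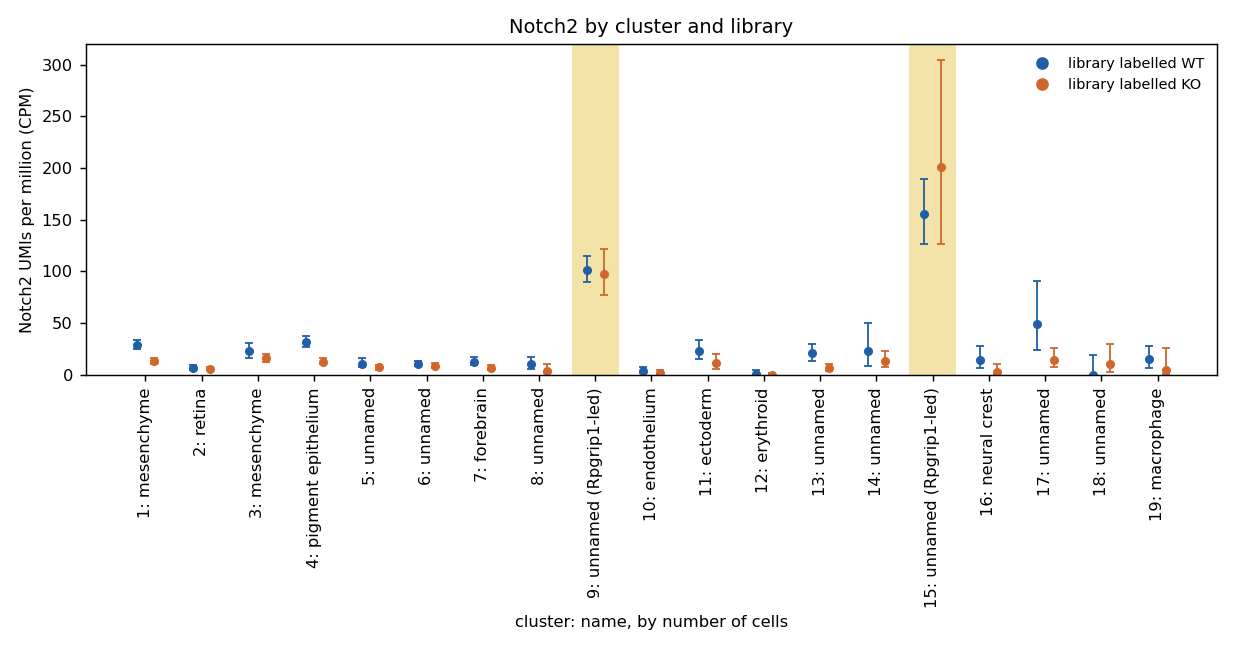
*Notch2* CPM (vertical axis, linear) in 19 clusters made without the Notch pathway genes, ordered by cell number and given with their name, for the WT-labelled library (blue) and the KO-labelled one (orange). Bars are exact 95% Poisson intervals. The 2 shaded clusters led by *Rpgrip1*, 9 and 15, lie at 97.4 to 201 CPM over both libraries, above every point of the other clusters.

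Among the ligands, *Dll1* (chr17:15367354-15376872, minus strand), which marks nascent neurons, was sparse, with its highest level in forebrain in both libraries. There 23 and 45 UMIs gave 5.40 [3.42 to 8.11] and 9.73 [7.09 to 13] CPM. Against the other 5 classes pooled, forebrain was 7.85 [4.05 to 15.4] and 10.8 [6.68 to 17.6] times as high. Endothelium had 4 and 19 UMIs, or 2.03 [0.554 to 5.20] and 7.23 [4.36 to 11.3] CPM. It came second in the KO-labelled library, and ectoderm in the WT-labelled one at 3.06 [0.833 to 7.83] CPM. In each library the interval of the second class overlapped that of forebrain. Retina had 5 and 7 UMIs, pigment epithelium 3 and 5, ectoderm 4 and 0, and mesenchyme 2 and 0. Beside the ectoderm counts, summed neuron markers stood at 99.4 and 10.6 CPM in that class, and their part was not tested. In forebrain the KO to WT ratio of *Dll1* was 1.80 [1.07 to 3.12].

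*Dll4* (chr2:119325784-119335962, plus strand), the ligand of arterial and sprouting endothelium, was counted almost only in endothelium. It held 31 and 46 UMIs there, or 15.8 [10.7 to 22.4] and 17.5 [12.8 to 23.4] CPM. The other 5 classes held none in the WT-labelled library, for which the exact lower limit of the ratio of endothelium to those classes was 114, and 6 UMIs in the KO-labelled library, a ratio of 106 [45.3 to 304]. A single endothelial cell of the WT-labelled library held 12 of its UMIs, and the level without it was 9.92 CPM. The KO to WT ratio was 1.11 [0.690 to 1.81], and 1.56 without the cell with the most UMIs of each library. It was 1.92 [0.786 to 5.35] in thinned cells, from 7 and 21 UMIs and under the minimum for a counted ratio. In cells with at most 6000 detected genes it was 2.30.

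*Jag1* (chr2:137081456-137116644, minus strand), a Jagged ligand with known parts in lens and ciliary body, differed in order between libraries. Ectoderm, from which the lens forms, held 21 and 4 UMIs, or 16.1 [9.94 to 24.5] and 4.26 [1.16 to 10.9] CPM, under the minimum for a counted ratio. Retina held 12.1 [9.88 to 14.6] and 11.9 [10.2 to 13.9] CPM, endothelium 13.2 [8.63 to 19.4] and 8.0 [4.95 to 12.2] CPM, mesenchyme 5.16 [3.78 to 6.89] and 6.31 [4.89 to 8.01] CPM and forebrain 3.05 [1.63 to 5.22] and 2.59 [1.34 to 4.53] CPM. The forebrain was lowest in both libraries. In pigment epithelium 7.90 [5.67 to 10.7] and 4.20 [2.76 to 6.10] CPM gave a ratio of 0.531 [0.314 to 0.885]. When clusters were used in place of the marker gate, this ratio was 1.28 [0.751 to 2.24], in the opposite direction, and without the *Rpgrip1*-led clusters it was 0.688. In cluster 5, led by *Cp*, *Zic1*, *Fgf8* and *Pax2*, *Jag1* was at 0.819 and 0.858 CPM, against 16.7 and 14.1 CPM in the retina cluster.

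*Hes1* (chr16:30064384-30067796, plus strand) encodes a repressor that keeps progenitors cycling and also answers to signals other than Notch. Its levels had the same order in both libraries, from retina at 393 [379.6 to 406] and 301 [292 to 311] CPM through forebrain at 319 [302 to 336] and 218 [204 to 232] CPM and pigment epithelium at 254 [241 to 268] and 183 [172 to 193] CPM to ectoderm at 169 [147 to 193] and 136 [114 to 162] CPM. Mesenchyme held 129 [122 to 137] and 95.8 [90.04 to 102] CPM and endothelium 81.8 [69.7 to 95.5] and 61.3 [52.2 to 71.5] CPM. Every step of that order was larger than the counting intervals in each library. Erythroid cells held 27.7 [19.6 to 38.1] and 6.30 [3.26 to 11] CPM. Among the clusters, cluster 5, which had no class name, was highest with 543 and 382 CPM. It held 116 cells gated as retina, and cluster 6, also unnamed and at 387 and 313 CPM, held 120. The cluster named retina was at 333 and 259 CPM, and that named forebrain at 297 and 196 CPM. Thinned retina cells with a *Hes1* UMI were 233 of 253 cells, 92.1% [88.1 to 95.1], and 445 of 485 cells, 91.8% [88.9 to 94]. Thinned erythroid cells with one were 3 of 38 cells, 7.89% [1.66 to 21.4], and 3 of 52 cells, 5.77% [1.21 to 15.9].

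*Hes1* was lower in the KO-labelled library in all 6 classes. The ratio was 0.768 [0.734 to 0.804] in retina, 0.718 [0.663 to 0.777] in pigment epithelium, 0.683 [0.629 to 0.741] in forebrain, 0.744 [0.683 to 0.810] in mesenchyme, 0.749 [0.599 to 0.938] in endothelium and 0.807 [0.644 to 1.01] in ectoderm. None was past 1.5-fold, and the interval in ectoderm held 1. In thinned cells the forebrain ratio was 0.656 [0.578 to 0.744] and past that limit. The thinned ratios of endothelium and ectoderm were 0.810 [0.548 to 1.20] and 0.744 [0.521 to 1.05], with intervals that held 1. Without cells above the gate for more than 1 class, the ectoderm ratio was 0.544. Of the 4921 genes with 50 UMIs in each class, 300 (6.10%) were lower in all 6, and 28 (0.569%) had no ratio above the 0.807 of *Hes1* in ectoderm. Both counts were chosen after the values were seen, and *Hes1* is by construction 1 of the 28. Neural crest cells, outside the 6 classes, had a ratio of 1.13 [0.879 to 1.46]. Over clusters, *Hes1* was lower in the KO-labelled library in 15 of 18 with at least 50 UMIs, with a median ratio of 0.725. In 4 clusters it was 1.5-fold or more lower, among them the erythroid cluster at 0.227 [0.108 to 0.444] and the forebrain cluster at 0.661 [0.599 to 0.728]. The erythroid cells are the background class, so the *Hes1* background itself differed between libraries, at 27.7 and 6.30 CPM. Endothelium, the lowest of the 6 classes, held 81.8 and 61.3 CPM. The part of this background in the ratios of *Hes1* was not tested. Clusters 14, 15 and 16 went the other way. Summed immediate early and heat shock genes, a list chosen after the data were seen, were at 65.7 and 70.6 CPM in retina and 212 and 225 CPM in endothelium, and were lower in the KO-labelled library only in pigment epithelium and ectoderm of the 6 classes.

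**Figure D3:**
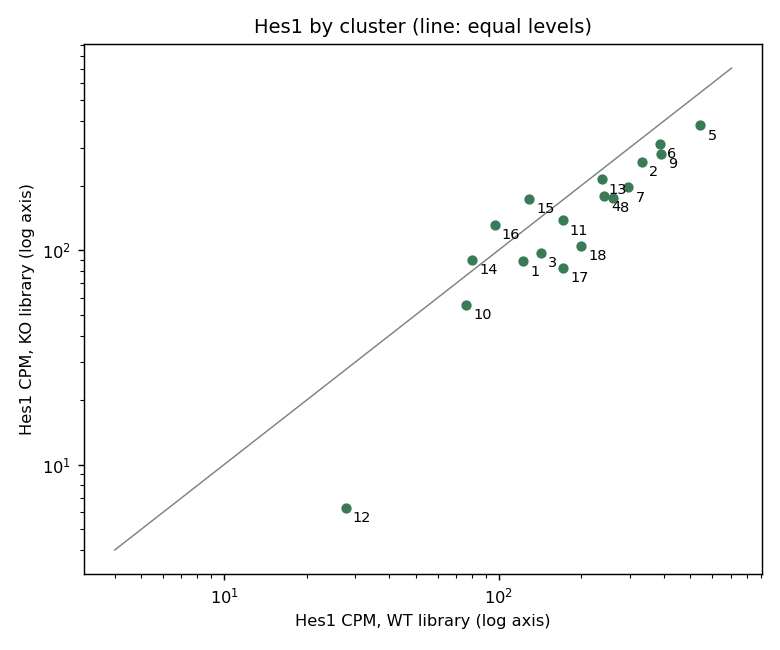
*Hes1* CPM in the WT-labelled library (horizontal, log axis) against the KO-labelled one (vertical, log axis), 1 point per cluster with at least 50 UMIs in both libraries together, numbered by cluster. The line marks equal levels, and 15 of 18 points lie below it.

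*Hes5* (chr4:154960923-154962371, plus strand), a target that follows Notch activity closely in neural progenitors, and *Hey2* (chr10:30832359-30842801, minus strand), known from arteries and heart, are the members whose promoter windows hold the Rbpj motif. The motif searched was GTGGGAA on either strand, in RefSeq windows (GRCm38.p6) from 250 bases before to 50 after a gene's start. It occurs in 6.38% of all 32851 windows, and on both strands of the same window in 0.100%. Of the members, 8 had a window in the table, *Hes1* and *Hey1* not being in it, and both windows with the motif have it on each strand. The stretch from 10 bases before the first to the end of the last motif is printed 5′ to 3′ on the gene's strand, with motifs in capitals. It is chr4:154960687-154960846 (plus strand) for *Hes5* and chr10:30842781-30843000 (minus strand) for *Hey2*.
Hes5: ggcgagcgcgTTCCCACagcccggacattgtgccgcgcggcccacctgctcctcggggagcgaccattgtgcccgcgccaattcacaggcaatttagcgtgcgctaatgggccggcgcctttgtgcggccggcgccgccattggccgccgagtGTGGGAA
Hey2: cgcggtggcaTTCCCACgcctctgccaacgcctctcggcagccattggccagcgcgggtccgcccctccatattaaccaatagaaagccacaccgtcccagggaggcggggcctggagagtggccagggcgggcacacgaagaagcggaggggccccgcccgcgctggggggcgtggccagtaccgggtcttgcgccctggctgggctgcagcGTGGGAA
The motifs begin 226 and 83 bases before the start of *Hes5* and 207 and 4 bases before that of *Hey2*. A match describes the letters and shows no binding.

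*Hes5* UMIs lay in the neural classes. Forebrain held 17 and 55 UMIs, or 3.99 [2.33 to 6.39] and 11.9 [8.95 to 15.5] CPM. Retina held 24 and 61, or 2.73 [1.75 to 4.07] and 4.43 [3.39 to 5.69] CPM. Pigment epithelium held 12 and 10 UMIs. Mesenchyme, endothelium and ectoderm held 1 or 2 UMIs in each library. The KO to WT ratio was 2.98 [1.70 to 5.47] in forebrain and 1.62 [0.996 to 2.72] in retina, the latter with an interval that held 1. A single forebrain cell of the KO-labelled library held 15 UMIs, and without the top cell of each library the forebrain ratio was 2.63. Thinned forebrain cells with a *Hes5* UMI were 6 of 168 cells, 3.57% [1.32 to 7.61], and 14 of 210 cells, 6.67% [3.69 to 10.9], with overlapping intervals, and no erythroid cell had one. *Hey2* reached at most 22 UMIs in any class, with 1.59 [0.872 to 2.67] and 1.60 [1.0 to 2.42] CPM in retina and 1.93 [0.924 to 3.54] and 2.18 [1.19 to 3.65] CPM in pigment epithelium. Its levels were too low to order the classes.

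*Hey1* (chr3:8663359-8667256, minus strand), a target in endothelium and mesenchyme, had its highest level in endothelium, at 45.2 [36.3 to 55.7] and 31.6 [25.2 to 39.2] CPM. Mesenchyme came second at 23.1 [20.1 to 26.5] and 18.4 [15.9 to 21.1] CPM, below endothelium and above the rest by more than the intervals in each library. Ectoderm held 6.88 [3.15 to 13.1] and 4.26 [1.16 to 10.9] CPM, forebrain 4.93 [3.05 to 7.54] and 2.38 [1.19 to 4.25] CPM, pigment epithelium 4.24 [2.66 to 6.41] and 3.11 [1.90 to 4.80] CPM and retina 3.42 [2.30 to 4.88] and 2.90 [2.07 to 3.95] CPM. Within mesenchyme, cluster 1, led by *Cxcl12* and *Col3a1*, held 30.6 and 27.8 CPM, while cluster 3, the other cluster named mesenchyme, held 5.37 and 10.1 CPM. The ratio between libraries was 0.699 [0.512 to 0.953] in endothelium and 0.794 [0.649 to 0.970] in mesenchyme. In thinned cells these ratios were 0.834 [0.518 to 1.35] and 0.834 [0.620 to 1.12], and both intervals held 1. The mesenchyme clusters took different shares of both libraries, with 308 and 330 cells in cluster 1 and 103 and 312 in cluster 3. Within them the ratio of *Hey1* was 0.908 [0.733 to 1.12] and 1.89 [0.943 to 4.18], and both intervals held 1.

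Of the 6 classes, endothelium had the most members called high, and also the highest share of all genes so called. A member was called high in a class where its level was 2-fold or more over the median of the other 5 classes in both libraries, with that median no lower than 3 counts. This held for 10 of the pairs of member and class. In endothelium these were *Notch1*, *Dll1*, *Dll4* and *Hey1*, where 10.2% of all genes with 50 UMIs were so called. In forebrain they were *Notch1*, *Dll1* and *Hes5* (background 3.53%), in retina *Hes1* and *Hes5* (2.78%), and in mesenchyme *Hey1* (5.69%). None was called in pigment epithelium (4.34%) or ectoderm (6.73%). *Notch2* and *Notch3* were called nowhere. *Dll4* met the minimum of 50 UMIs only through endothelium, which held 31 and 46 of its 85 UMIs. Its call there thus adds nothing to the count, and without it endothelium has no more called members than forebrain. *Dll1* in endothelium rested on 4 UMIs in the WT-labelled library, where its level over the other 5 classes pooled was 1.56 [0.405 to 4.35], against 4.62 [2.60 to 7.88] in the KO-labelled one. *Hes5* in retina was at 1.79 [1.01 to 3.12] and 1.62 [1.13 to 2.32] times the other classes pooled, and in forebrain at 2.61 [1.39 to 4.71] and 5.45 [3.78 to 7.82] times. *Notch1* in endothelium was at 8.14 and 5.29 times the median of the other classes, and *Hey1* at 9.17 and 10.2 times.

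Between libraries, 31 pairs of member and class had at least 50 UMIs, with a median log2 ratio of -0.12, against 0.01 over all counted genes and classes. Pairs of the same gene are not independent. *Hes1* in all 6 classes and *Notch2* in 4 are among them, all below the WT level, so the median describes no shift of the pathway. The KO level was 1.5-fold or more below WT in 5 pairs, where 2.58% of all gene and class pairs were. They were the 4 of *Notch2* and *Jag1* in pigment epithelium. No counted pair was that low in endothelium, where 3.89% of genes were, or in ectoderm, where 5.60% were. In ectoderm only *Hes1* and *Notch3* were counted. With under 50 UMIs there, *Jag1* was at 0.265 [0.0662 to 0.786], *Notch2* at 0.497 [0.216 to 1.06] and *Hey1* at 0.619 [0.139 to 2.22]. *Notch1* at 1.26 and *Hes5* at 1.39 went the other way, also under that minimum. In endothelium *Jag1* was at 0.605, under it too. The level was 1.5-fold or more above WT in 6 pairs, where 2.52% of all gene and class pairs were. They were *Hes5* in forebrain and retina, *Dll1* in forebrain, *Notch1* in mesenchyme at 1.51 [1.06 to 2.18], and *Notch3* in endothelium at 1.69 [0.912 to 3.25] and in ectoderm at 1.67 [1.0 to 2.81]. The intervals of *Hes5* in retina and *Notch3* in endothelium held 1, and that of *Notch3* in ectoderm reached down to 1.0. With every cell thinned to 10000 UMIs none of the 21 pairs that still had 50 UMIs was 1.5-fold above WT. *Notch1* in mesenchyme was at 1.39 [0.869 to 2.27] there. The other 5 pairs had under 50 UMIs, with *Hes5* at 3.66 [1.59 to 9.82] in forebrain and 1.70 [0.745 to 4.33] in retina, *Dll1* at 1.33 [0.547 to 3.46] in forebrain, and *Notch3* at 1.49 [0.539 to 4.74] in endothelium and 1.94 [0.845 to 4.62] in ectoderm. In pigment epithelium and forebrain *Notch1* had ratios of 1.44 [1.07 to 1.94] and 1.31 [1.06 to 1.62], and in endothelium 0.831 [0.700 to 0.987]. The pigment epithelium ratio of *Notch1* was 0.973 [0.519 to 1.84] in thinned cells, from under 50 UMIs. Its endothelium ratio was 0.882 [0.648 to 1.21] in thinned cells.

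**Figure D4:**
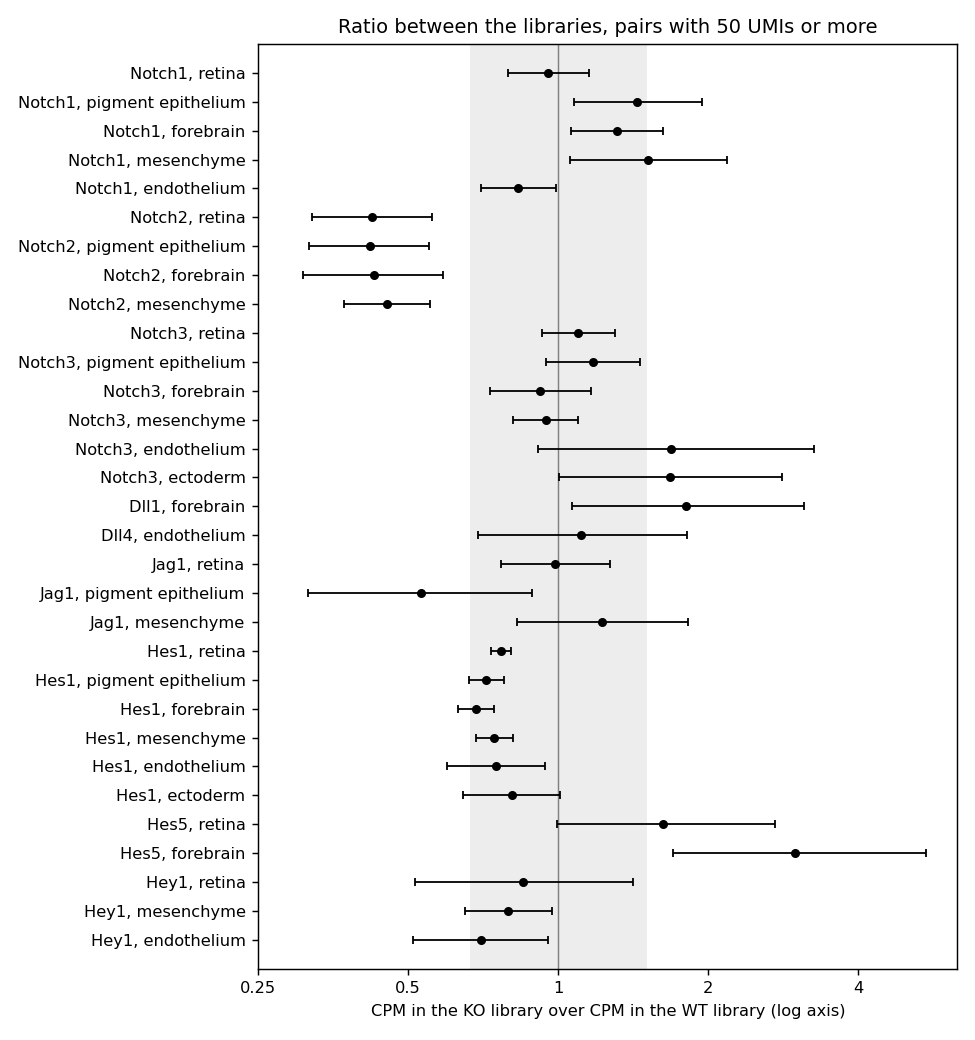
Level in the KO-labelled library over that in the WT-labelled library (horizontal, log axis) for the 31 pairs of gene and class with at least 50 UMIs (vertical axis). Bars are exact 95% conditional intervals for counting error, and the grey band spans less than 1.5-fold. *Notch2* lies left of the band in all 4 classes, at 0.419 to 0.454, and *Hes1* left of 1 in all 6, at 0.683 to 0.807.

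In endothelium, *Hey1* was read in cells with and without a *Dll4* UMI. After thinning, 5 of 64 cells, 7.81% [2.59 to 17.3], of the WT-labelled library and 17 of 100 cells, 17% [10.2 to 25.8], of the KO-labelled library had a *Dll4* UMI, and no erythroid cell did. Before thinning the shares were 23.9% and 22.6%. Cells with a *Dll4* UMI held 300 [168 to 495] CPM of *Hey1* in the WT-labelled library, against 30.5 [18.1 to 48.2] CPM in those without. In the KO-labelled library the values were 200 [139 to 279] and 10.8 [4.96 to 20.6] CPM. Those *Hey1* UMIs lay in 3 of 5 and 10 of 17 cells with a *Dll4* UMI, and in 11 of 59 and 7 of 83 cells without. The summed arterial list, 8 genes such as *Gja4*, *Sox17* and *Efnb2*, stood at 1520 [1198 to 1903] with and 378 [330 to 431] CPM without in the WT-labelled library, and at 1124 [969.8 to 1295] and 287 [251 to 326] CPM in the KO-labelled one. The venous list, 5 genes such as *Aplnr* and *Nr2f2*, had the opposite order, with 340 [198 to 544] and 861 [788 to 939] CPM, and with 400 [311 to 507] and 758 [699.8 to 819] CPM. For these 3 measures the intervals did not overlap in either library. *Notch1* was at 200 [95.9 to 368] with and 108 [83.5 to 139] CPM without in the WT-labelled library, with overlap, and at 176 [119 to 252] and 86.7 [67.9 to 109] CPM in the KO-labelled one. *Jag1* intervals overlapped in both. Cells of 1 library come from 1 embryo and are no replicates.

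**Figure D5:**
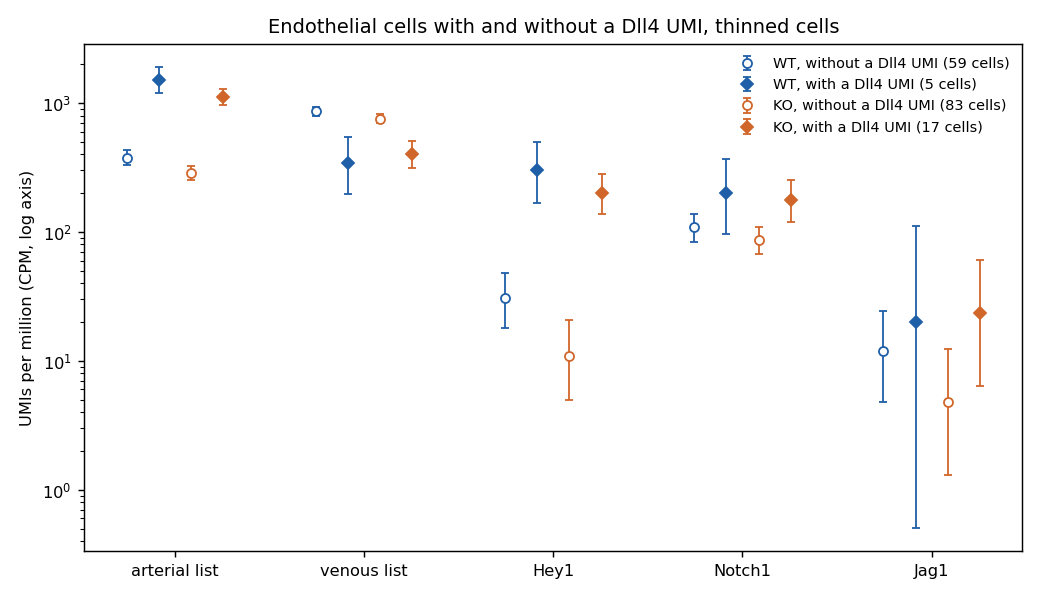
Levels (vertical, log axis, CPM) of the summed arterial and venous lists, *Hey1*, *Notch1* and *Jag1* in endothelial cells thinned to 10000 UMIs, with (filled) and without (open) a *Dll4* UMI, for the WT-labelled library (blue) and the KO-labelled one (orange). Bars are exact 95% Poisson intervals. *Hey1* is higher and the venous list lower in cells with a *Dll4* UMI in both libraries.

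In the neural classes *Dll1* cells were few. Of the thinned retina, pigment epithelium and forebrain cells together, 10 of the WT-labelled library and 18 of the KO-labelled library had a *Dll1* UMI. The summed proneural factors, which drive neuron formation, were at 230 [146 to 345] CPM in them and 5.09 [3.44 to 7.27] CPM in the others in the WT-labelled library, and at 189 [131 to 264] and 4.51 [3.23 to 6.15] CPM in the KO-labelled one. These UMIs came from 2 and 4 of the *Dll1* cells. Of those cells, 7 and 12 were forebrain, and within forebrain alone the proneural sums were 329 [208 to 493] and 14.9 [9.55 to 22.2] CPM in the WT-labelled library and 283 [196 to 396] and 13.1 [8.58 to 19.2] CPM in the KO-labelled one. *Hes1* was at 250 [162 to 369] with and 335 [321 to 351] CPM without in the WT-labelled library, with overlapping intervals, and at 150 [98.9 to 218] and 251 [241 to 262] CPM in the KO-labelled one, with intervals apart. *Hes5* had 0 UMIs in the *Dll1* cells of the WT-labelled library and 6 in those of the other, all from 1 cell. Within forebrain alone the *Hes1* intervals overlapped in both libraries.

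The rest of the pathway was read through 8 lists with 52 genes, of which 44 had 50 UMIs. Over their 185 counted pairs of gene and class, 4 (2.16%) were 1.5-fold or more below WT and 8 (4.32%) above, against 2.58% below and 2.52% above over all genes. Among other receptors and ligands, *Notch4*, an endothelial receptor, was at 48.3 and 30.1 CPM, ratio 0.623 [0.456 to 0.849], in endothelium. *Dlk1*, a non-canonical ligand, was high in forebrain at 833 and 984 CPM, lower in the KO-labelled library in mesenchyme with 259 and 172 CPM, ratio 0.664 [0.624 to 0.707], and higher in pigment epithelium with 82 and 140.3 CPM, ratio 1.71 [1.52 to 1.92]. The median log2 ratio of this list was -0.12.

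The Fringe enzymes, which add sugars to the receptors and tune their choice of ligand, were followed in the glycosylation list, with 1 pair below and 3 above of 23. *Mfng* was the most class-bound gene of the list, at 118 and 132 CPM in endothelium, and in forebrain it was at 12.2 and 20.3 CPM, ratio 1.66 [1.17 to 2.38]. Class-bound, or bound to a class, here means called high there by the rule given above. It does not mean that the gene was found only there. *Lfng* was at 8.09 and 4.82 CPM, ratio 0.596 [0.362 to 0.970], in pigment epithelium and at 4.93 and 7.78 CPM, ratio 1.58 [0.896 to 2.84], in forebrain. *Rfng* was at 18.3 and 34.1 CPM, ratio 1.86 [1.06 to 3.29], in ectoderm. The median log2 ratio of the list was 0.12.

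None of 21 pairs of the ligand endocytosis list was past 1.5-fold. Its most class-bound gene was *Neurl1a* at 3.66 and 3.42 CPM in pigment epithelium, where 4.34% of all genes were called high. Only 19 and 22 of its 183 UMIs lay there, beside 19 and 29 in retina and 18 and 19 in mesenchyme. The receptor cleavage list, with the protease Adam10 and the gamma-secretase subunits, had 1 pair above of 40, *Aph1b* in forebrain at 6.34 and 10.4 CPM, ratio 1.64 [1.0 to 2.73], and no class-bound gene. Of 42 pairs of inhibitors and turnover genes, *Itch*, a ubiquitin ligase, was higher in ectoderm at 37.4 and 69.2 CPM, ratio 1.85 [1.26 to 2.73], and *Fbxw7*, which marks the intracellular domain for decay, lower there at 32.9 and 19.2 CPM, ratio 0.583 [0.317 to 1.03]. *Dtx1* was called high in ectoderm, where 6.73% of all genes were. Its 5.35 and 9.58 CPM there, from few UMIs, were 7.59 and 4.93 times the median of the other classes. In the nuclear complex list *Maml1* in endothelium, at 10.2 and 17.5 CPM, ratio 1.72 [0.999 to 3.08], was the 1 pair above of 38, and the coactivator *Maml2* was bound to endothelium at 13.2 and 11.8 CPM.

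*Heyl*, a relative of *Hey1*, was bound to mesenchyme at 7.18 and 7.44 CPM, and none of 7 pairs of other Hes and Hey factors was past 1.5-fold. Among proneural factors *Neurog2* was bound to forebrain at 12.9 and 14.3 CPM, and *Neurod1* there was at 4.23 and 6.92 CPM, ratio 1.64 [0.891 to 3.09]. Of 17 counted pairs of the arterial list, 2 were 1.5-fold or more below WT, both in endothelium, where 3.89% of all counted genes were. They were *Gja4* at 114 and 60.2 CPM, ratio 0.526 [0.427 to 0.648], and *Unc5b* at 58.4 and 35.4 CPM, ratio 0.606 [0.456 to 0.803]. *Sox17* was at 87.9 and 72.7 CPM there, ratio 0.827 [0.670 to 1.02]. None of 17 counted pairs of the venous list was past 1.5-fold, and *Aplnr* in endothelium was at 293 and 292 CPM, ratio 0.997 [0.893 to 1.11]. The summed arterial list was at 531 and 389 CPM and the summed venous list at 779 and 782 CPM in endothelium. In that class *Hey1*, *Hes1*, *Notch1* and *Notch4* were lower in the KO-labelled library, with intervals that left out equal levels. The share of all endothelial genes with such intervals was not computed, so this list cannot be set against it. Of the 4, only *Notch4* was past 1.5-fold. *Jag1* was lower at 0.605 [0.324 to 1.12], and *Dll4* and *Notch3* were higher, with intervals that included equal levels. *Dll1* was higher from 4 and 19 UMIs, and *Notch2*, *Hes5* and *Hey2* had few UMIs there. In thinned endothelial cells the intervals of *Hey1*, *Hes1* and *Notch1* held 1. The ratios were 0.834 [0.518 to 1.35], 0.810 [0.548 to 1.20] and 0.882 [0.648 to 1.21]. Without the cell with the most UMIs of each library, the ratio of *Notch1* was 0.902. *Hes1* was lower in all 6 classes. A different share of arterial cells and a different level per cell cannot be told apart here.

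Genes most like each member over the 12 values of 6 classes and 2 libraries were found by Pearson's r of log2(CPM + 1), a description over points that share libraries and depth. They were *Ly6h* (r = 0.97), *Shroom2* (r = 0.96), *Ica1* (r = 0.95) for *Notch1*, *Tenm4* (r = 0.98), *Dzip1l* (r = 0.97), *Clcc1* (r = 0.97) for *Notch3*, and *Casd1* (r = 0.99), *Fam212a* (r = 0.98), *Rftn2* (r = 0.97) for *Hey1*. For *Hes1* they were *Nucks1* (r = 0.95), *Epha5* (r = 0.95), *Phyhipl* (r = 0.95), and for *Hes5* *Scube2* (r = 0.95), *D030055H07Rik* (r = 0.95), *Adgrb1* (r = 0.94). For *Notch2*, *Ube2s* (r = 0.92), *Ldah* (r = 0.91), *Trim59* (r = 0.91) came closest. *Dll1* was nearest to *Me2* (r = 0.91), *Zfp524* (r = 0.90), *Arpc5l* (r = 0.90), and *Jag1*, the least matched, to *Myc* (r = 0.83), *Efnb2* (r = 0.80), *Foxo3* (r = 0.79). *Dll4* and *Hey2* had under 100 UMIs and were left out.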

How the data were processed

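Single cells of the ocular area of 1 WT and 1 *Mab21l1*-null embryo were sequenced by the 10x Chromium 3′ method. The authors aligned the reads to mm10 (GRCm38) with Cell Ranger, merged both libraries by its aggr step, in which reads can be subsampled, and deposited whole-number UMI counts per gene and cell that are not scaled. Members, gene lists and rules were chosen with earlier results of these data known. All 10 members, and of each list the most class-bound gene and those past 1.5-fold, are named, and the 3 genes most like a member.

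A cell was kept if 1500 to 8000 genes were detected in it and mitochondrial genes made up no more than 5% of its UMIs, the limit in the methods being read as a fraction of 0.05. Each marker seen in at least 0.5% of cells was scored as a capped z-value of ln(1 + UMIs per 10000), and a cell took the class whose mean was at least 0.5 and led the next by 0.25, among 9 classes with erythroid, neural crest and macrophage. Within 0.1 of a limit lay 544 cells. UMIs were summed per class and library. Exact Poisson and conditional binomial intervals for counting error were computed. Clusters used 2000 variable genes without any Notch pathway gene, 40 principal components and the Leiden method. Cells were thinned once to 10000 UMIs, which left out 139 and 194 shallower cells. Doublets were not removed. The ratios between libraries, their intervals and the fold calls were run on simulated counts, and the thinning was checked on cells of the data. Those counts were drawn from the Poisson model that the intervals assume. They thus check the calculation and cannot cover UMIs clumped in single cells or differences between embryos. The marker gate and the clusters were not tested in this way. Python 3.11.15, numpy 2.4.6, scipy 1.17.1, pandas 2.3.3 and leidenalg 0.10.2 were used.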

Additional observations from a re-analysis of the deposited data

How the results depend on the processing

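The limits and alternatives were a stricter marker gate, named clusters, other cell filters, no cells above the gate for more than 1 class, per-cell means, a median of ratios, thinning and other minimums and folds. After the data were seen, leaving out the *Rpgrip1*-led clusters, 2 clusters with *Malat1* below 1000 CPM, or the cell with the most UMIs of a gene was added. Pairs of member and class 1.5-fold or more below WT, 5 with the main settings, numbered 4 to 6 except with a minimum of 20 UMIs, which gave 9 as more pairs were counted. Pairs above WT, 6 with the main settings, numbered 3 with per-cell means, 1 at 2-fold and 0 in thinned cells, where 21 pairs kept 50 UMIs and 5 of the 6 pairs did not, *Hes5* in forebrain among them with a ratio of 3.66, and 4 to 7 otherwise. *Jag1* in pigment epithelium reversed to 1.28 with named clusters, and the cause was not tested. Of all single ratios under alternatives, 325 lay within the counting interval of the reported value and 15 outside it beside the reversed one, and of single levels 912 and 48. Pairs 2-fold over the other classes, 10 with the main settings, numbered 6 in thinned cells and 8 to 12 otherwise, with 14 at 1.5-fold and 8 at 3-fold. Without thinning, 66 of the shares of cells lay outside the thinned interval, as deeper cells show more genes. Doublet calls with Scrublet were not run. Depth limited *Hey2*, *Dll1* and *Dll4* outside their main class, where 0 UMIs have an exact upper limit of 3.93 CPM in ectoderm of the KO-labelled library. No paired analysis was possible because each genotype has 1 library.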

Other observations

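Neural crest cells, 41 in the WT-labelled library and 47 in the KO-labelled one, held 63.6 [47.5 to 83.4] and 44.3 [32.3 to 59.2] CPM of *Notch1*, above every one of the 6 classes except endothelium in the WT-labelled library, and 33 [21.8 to 48] and 29.5 [19.9 to 42.1] CPM of *Notch3*. They held 0 and 0 UMIs of *Dll4* and 0 and 1 of *Hes5*.

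Cells of the clusters with low *Malat1* (116 and 143 cells), a nuclear RNA, held few receptor UMIs beside their *Hes1*. *Notch1* was at 5.70 [2.46 to 11.2] and 3.74 [1.21 to 8.73] CPM there, against 23.4 [21.9 to 25] and 25.1 [23.8 to 26.6] CPM in the clusters that were neither low in *Malat1* nor led by *Rpgrip1*. *Notch3* was at 6.42 [2.93 to 12.2] and 2.99 [0.815 to 7.66] CPM, against 27.7 [26 to 29.4] and 29.9 [28.4 to 31.4] CPM. *Hes1* was at 252 [227 to 280.1] and 160 [139 to 183] CPM, against 249.9 [245 to 255] and 196 [192 to 199.8] CPM. The *Hes1* intervals overlapped in the WT-labelled library. *Jag1* in the *Rpgrip1*-led clusters was at 18.9 [14.5 to 24.3] and 23.9 [14.8 to 36.5] CPM, against 7.35 [6.51 to 8.28] and 7.05 [6.33 to 7.82] CPM. What sets these cells apart was not tested.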
